A study of Caenorhabditis elegans with 12 samples.

Results

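The subject is what food deprivation changed in adult hermaphrodites of the nematode Caenorhabditis elegans. It is measured on 6 of the 12 arrays of the series, taken by their labels: 3 arrays of fasted and 3 of fed hermaphrodites, with 6 arrays of males used where a difference between the sexes is stated. Both groups were wild-type worms of strain N2, taken whole, grown at 20 C, parted from males by filtration as young adults, and moved to plates with 200 ug/ml of FUdR, a blocker of DNA synthesis that stops progeny from hatching. From day 2 of adulthood fed worms had food freely, while fasted worms had none for 48 h, and both were collected on day 4 of adulthood. FUdR was thus given to every group, and the labels describe separate biological samples. Levels are log2 signals of the array, a change is fasted minus fed on that scale with its standard error (SE), and 1 unit is a doubling.

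A worm without food stops taking in bacteria, its usual diet, and draws on fat held mainly in the intestine, which is both the digestive organ and the main store. Lipases free fatty acids from droplets and lysosomes, acyl-CoA synthetases activate them, and mitochondria and peroxisomes oxidise them. Less insulin-like signalling lets the transcription factor DAF-16 enter nuclei, and small heat shock proteins, a superoxide dismutase and a metallothionein are among its known targets. The intestine also carries much of the worm's innate defence, and the epidermis builds the collagen cuticle.

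The labels were set against tissue markers. The yolk gene vit-2 stood at 14.08, 14.25 and 13.93 on the fed and 13.85, 13.89 and 13.57 on the fasted arrays, against a mean of 7.38 in fed males. The 6 markers of male soma had mean levels between 2.31 and 5.26 in hermaphrodites, while cwp-1, a gene of male sensory neurons, averaged 11.07 in fed males. Labelled sex and markers went together. Levels correlated at r = 0.961 to 0.968 between arrays of a group and at 0.929 to 0.945 between a fed and a fasted array, across probe sets, which are not independent.

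Across 12212 genes, each read on 1 probe set, 742 rose and 735 fell (6.08% and 6.02%; limma, adjusted p under 0.05). The falls were the larger: the median change was -1.38 among genes that fell and 0.84 among those that rose, against 0.09 for all genes. Genes that fell had a median fed level of 9.51, against 7.96 for genes that rose and 7.98 for all genes. The fasted medians were 7.96 for genes that fell, 8.97 for genes that rose and 8.03 for all genes. Calls were made from these same levels, a choice that favours a high fed level among falls and a high fasted level among rises. Of these 1477 calls (12.1%) 775 were kept in every one of 17 alternative settings, 274 rises and 501 falls. Counted over 15913 probe sets, the rises numbered 910 (5.72%) and dropped to 532 without fasted replicate 3 and 537 without fasted replicate 2, and the falls numbered 906 (5.69%) and stayed between 762 and 831 whichever array was left out. Among the 100 genes with the highest mean level, 1 rose and 1 fell. The rise was tts-1, a noncoding RNA (0.69 ± 0.15), and the fall lys-7, a lysozyme (-0.77 ± 0.16), both chosen here after their values were seen.

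**Figure D1:**
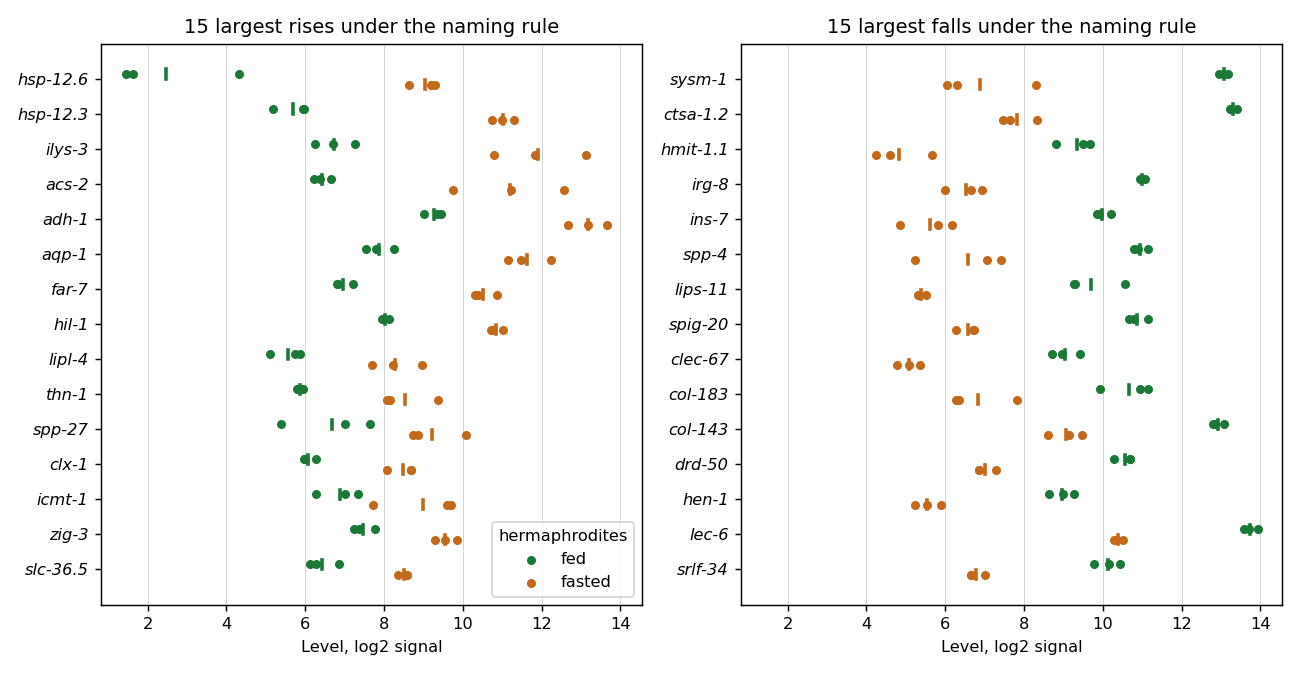
Levels (log2 signal, horizontal axis) of the 15 largest rises (left) and 15 largest falls (right) among genes with a locus name whose probe set ID shows no sign of cross-hybridization. Points are single arrays, green for fed and orange for fasted hermaphrodites, and ticks are means of 3 arrays; fed and fasted arrays do not overlap in any row, which the rule for naming required.

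The plot of the largest changes gives their values by array. The naming rule required separate groups and a call kept whichever array was left out, so it favoured tight changes. For hsp-12.3, a small heat shock protein gene, the fed arrays read 5.98, 5.18 and 5.94 and the fasted arrays 10.73, 10.996 and 11.31. All 3 fasted arrays lay more than 4 units above the highest fed array, and the rise was 5.31 ± 0.24 (39.7-fold; adjusted p = 1.69e-07). Its relative hsp-12.6 read 1.45, 1.62 and 4.32 when fed, near the bottom of the scale, and 9.28, 8.65 and 9.20 when fasted. The size of that rise, 6.58 ± 0.85, depends on how near-zero signals are treated and was 4.31 with 20.0 signal units added before the logarithm.

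Other rises were less even among the fasted worms. The gene ilys-3, an invertebrate-type lysozyme, read 6.71, 6.25 and 7.26 when fed and 10.80, 11.84 and 13.12 when fasted. For acs-2, which activates fatty acids for mitochondrial oxidation, the fed arrays gave 6.67, 6.37 and 6.23 and the fasted arrays 12.58, 11.23 and 9.75. Fasted replicate 1 was the highest for acs-2 and the lowest for ilys-3. Their rises, 4.77 ± 0.54 and 5.18 ± 0.64, had adjusted p of 8.24e-05 and 1.67e-04, and neither group of arrays overlapped the other.

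Genes of fat use are given in the order of their steps. In every list from here on, counts are to be read against the 6.08% of all genes that rose and the 6.02% that fell. Calls kept in every alternative are to be read against 274 rises and 501 falls among 12212 genes. Of 10 droplet, cytosolic and lysosomal lipases tested, 2 rose and 1 fell (20% and 10%). The lysosomal lipase gene lipl-4 read 5.86, 5.10 and 5.74 when fed and 8.95, 7.68 and 8.22 when fasted, a rise of 2.72 ± 0.38 (6.60-fold; adjusted p = 4.32e-04). The hormone-sensitive lipase gene hosl-1 rose by 0.69 ± 0.14 (adjusted p = 0.00667), from 8.05, 8.42 and 8.14 to 8.79, 9.004 and 8.88. The droplet lipase gene atgl-1 had a value of 0.23 ± 0.21 (adjusted p = 0.559), and its fed and fasted arrays overlapped. The third called lipase, a fall, was not kept in every alternative and is not named. Outside this list lips-11, a lipase by its name, fell by 4.32 ± 0.31, from 9.29, 10.56 and 9.27 to 5.51, 5.32 and 5.35. Here and below, a count of 3 or fewer in a list moved by at most 2 when 1 array was left out.

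Acyl-CoA synthetases moved both ways: 4 of 21 rose and 3 fell (19.0% and 14.3%), with a median change of 0.40. Besides acs-2, acs-17 rose by 1.20 ± 0.25 and acs-3 by 1.21 ± 0.26. In contrast acs-1, which activates branched-chain fatty acids, read 11.25, 11.44 and 11.24 when fed and 8.71, 8.54 and 8.43 when fasted. Each fasted array was lower than every fed array by more than 2 units, and the fall was -2.75 ± 0.14 (6.73-fold lower; adjusted p = 2.62e-07). It was the only fall of the list kept in every alternative, and without fed replicate 1 it was the only synthetase that fell.

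Further down the pathway calls were few. Of 29 genes of mitochondrial fatty acid oxidation 2 rose and 1 fell (6.90% and 3.45%, near the shares of all genes), and of 20 peroxisomal genes 1 rose and 3 fell (5.0% and 15%). None of the 3 mitochondrial calls was kept in every alternative, and the count of rises was 0 when fed replicate 2 or 3 or fasted replicate 2 was left out and 1 in the other cases. Among 18 desaturases, elongases and synthesis genes 1 rose and 2 fell. The stearoyl-CoA desaturase gene fat-7 was the one kept in every alternative, with levels of 8.85, 9.51 and 9.35 when fed and 7.37, 7.98 and 7.86 when fasted. That is a change of -1.499 ± 0.22 (2.83-fold lower; adjusted p = 7.32e-04), and its lowest fed array was above its highest fasted array. The carrier gene far-7, a fatty acid and retinol binding protein, rose by 3.57 ± 0.20, from 6.82, 6.81 and 7.21 to 10.88, 10.30 and 10.37. It was the only rise among 17 carriers of this kind, of which 4 fell, or 2 with fed replicate 3 or fasted replicate 1 or 2 left out.

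Of 17 sphingolipid and related enzymes 2 fell and none rose (11.8% fell, against 6.02% of all genes), both kept in every alternative. They were sptl-2, a subunit of serine palmitoyltransferase, which starts sphingolipid synthesis (-1.24 ± 0.19), and asah-2, an acid ceramidase, which breaks ceramide down (-0.83 ± 0.14). In contrast 6 of 15 genes of the methionine cycle and phosphatidylcholine synthesis rose and none fell (40%, against 6.08% of all genes), and 3 of the 6 were kept in every alternative. Those were pcyt-1 (1.17), an enzyme of phosphatidylcholine synthesis, and the S-adenosylmethionine synthetases sams-4 (0.54) and sams-5 (2.72, or 1.49 with the added signal). Their probe sets may cross-hybridize by their type, so they fall outside the naming rule and were chosen after their values were seen.

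Sugar and energy stores showed smaller steps. Trehalose, the sugar that circulates in worms, is made by 2 synthases. The gene tps-1 of the first read 8.80, 8.95 and 8.73 when fed and 10.003, 9.97 and 9.98 when fasted. The fasted arrays were nearly the same and all above the fed ones, a rise of 1.15 ± 0.13 (2.23-fold; adjusted p = 9.39e-05). Of the 10 glycogen and trehalose genes 2 rose and 1 fell (20% and 10%), and tps-1 was the only call kept in every alternative. The other 2 calls, named after their values were seen, were the second synthase gene tps-2 (0.62 ± 0.16, adjusted p = 0.0245) and tre-3 (-0.55 ± 0.12, adjusted p = 0.0107).

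The glyoxylate cycle lets worms turn fat into sugar, and phosphoenolpyruvate carboxykinases feed gluconeogenesis. Of 10 such genes 2 rose. The carboxykinase gene pck-2 rose by 0.60 ± 0.13 (adjusted p = 0.00962) and icl-1, isocitrate lyase, by 0.90 ± 0.23 (adjusted p = 0.0265), from 11.55, 11.11 and 11.73 to 12.94, 12.21 and 11.93. The icl-1 call ended in 6 alternatives, among them those without fed replicate 1 (adjusted p = 0.0529), fed replicate 2 (0.0984) and fasted replicate 1 (0.0695). Another carboxykinase gene, pck-1, had 0.66 ± 0.25 (adjusted p = 0.119). A further one, pck-3, chosen after its values were seen, had -0.71 ± 0.32 (adjusted p = 0.201). Its mean levels were near the bottom of the scale, at 2.48 when fed and 1.77 when fasted. With the replicate block, which pairs arrays of the same replicate number, the adjusted p of pck-1 was 0.0245. With the block 4 of the 10 genes rose (9.19% of all genes rose and 7.25% fell with it). The block also added 1 rise each to the synthetase, mitochondrial, peroxisomal, desaturase and carrier lists above. It added 1 fall each to the mitochondrial, peroxisomal and carrier lists. Of the 15 genes of the methionine cycle and phosphatidylcholine synthesis 8 rose with it. Among 14 genes of branched-chain amino acid and propionate breakdown 2 fell, led by the aminotransferase gene bcat-1 (-1.72 ± 0.22), and none rose; with the block 3 fell and 2 rose.

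Digestive proteases had the highest share of falls of any list with at least 10 tested members. This list, like the others, was drawn up with earlier results of these data known. Its share and rank therefore describe these data and are not a test of the family. Cathepsin B-like (cpr) and aspartic (asp) proteases break down bacterial protein in the gut and lysosomes. Of the 19 tested 13 fell and none rose (68.4%, against 6.02% of all genes), 10 of them in every alternative, and the median change was -1.03. A member outside the naming rule, cpr-2, named after its values were seen, lay higher on all 3 fasted arrays (1.95 ± 0.61; adjusted p = 0.0602) and rose in 3 alternatives, among them the added signal (adjusted p = 0.0229). The gene cpr-9 read 13.94, 13.87 and 13.76 when fed and 10.94, 10.80 and 10.81 when fasted, an even change across arrays (-3.01 ± 0.11, or 8.04-fold lower; adjusted p = 2.76e-08). For cpr-4 the values were 13.25, 13.21 and 13.48 against 10.75, 10.78 and 9.30, with fasted replicate 3 the lowest. For asp-1, an aspartic protease made in the intestine, they were 14.28, 14.38 and 14.46 against 12.16, 12.31 and 12.28. None of these genes overlapped between the groups, and the changes were -3.04 ± 0.31 for cpr-4 and -2.12 ± 0.16 for asp-1. A further cathepsin B-like gene, cpr-1, fell by 2.68 ± 0.24. Falls of the lysosomal cathepsin genes were smaller, at -1.03 for cpr-6 and -0.69 for asp-3, which were chosen after their values were seen.

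Fewer uptake genes moved together. Among 36 transporters of peptides, sugars, vitamins, amino acids and heme 9 fell and 4 rose, with 7 falls and 1 rise kept in every alternative, and 10 fell and 7 rose with the block. The myo-inositol transporter gene hmit-1.1 read 8.82, 9.51 and 9.67 when fed and 4.24, 5.67 and 4.60 when fasted, a change of -4.49 ± 0.43 that was -3.74 with the added signal. The sugar transporter gene swt-6, of the SWEET family, changed by -3.21 ± 0.34, and hrg-7, a secreted protein of heme signalling placed in this list, by -2.06 ± 0.30. The rise kept throughout was slc-36.5, an amino acid transporter of the SLC36 family, from 6.87, 6.11 and 6.27 to 8.59, 8.35 and 8.59 (2.10 ± 0.22; adjusted p = 4.16e-05). The count of rises was 1 without fed replicate 3 and 2 without fasted replicate 2 or fasted replicate 3.

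The intestinal peptide transporter gene pept-1 read 7.13, 6.80 and 5.96 when fed and 6.38, 7.10 and 6.30 when fasted. These groups overlapped, and the change was -0.04 ± 0.30 (adjusted p = 0.959). Leaving out 1 array turned its sign in 4 of 6 cases.

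Among channels for water and glycerol rises were seen. Of 9 aquaporin genes 3 rose (33.3%, against 6.08% of all genes) and none fell, and 2 were kept in every alternative. The gene aqp-1, a glycerol channel of the intestine, read 8.26, 7.81 and 7.55 when fed and 12.24, 11.48 and 11.13 when fasted (3.75 ± 0.29, or 13.4-fold; adjusted p = 3.23e-06). Its relative aqp-7 rose by 1.30 ± 0.22. Replicate 1 was the highest of its group for aqp-1 in both fed and fasted worms. Among 37 ABC transporter genes, whose products export lipids and toxins, 4 fell in every alternative, among them pgp-12 (-1.46 ± 0.24), pgp-8 (-1.25 ± 0.19) and pgp-3 (-1.18 ± 0.18), and 2 rose. Those rises numbered none with fasted replicate 2 or 3 left out, 4 without fasted replicate 1 and 1 without any of the fed replicates.

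**Figure D2:**
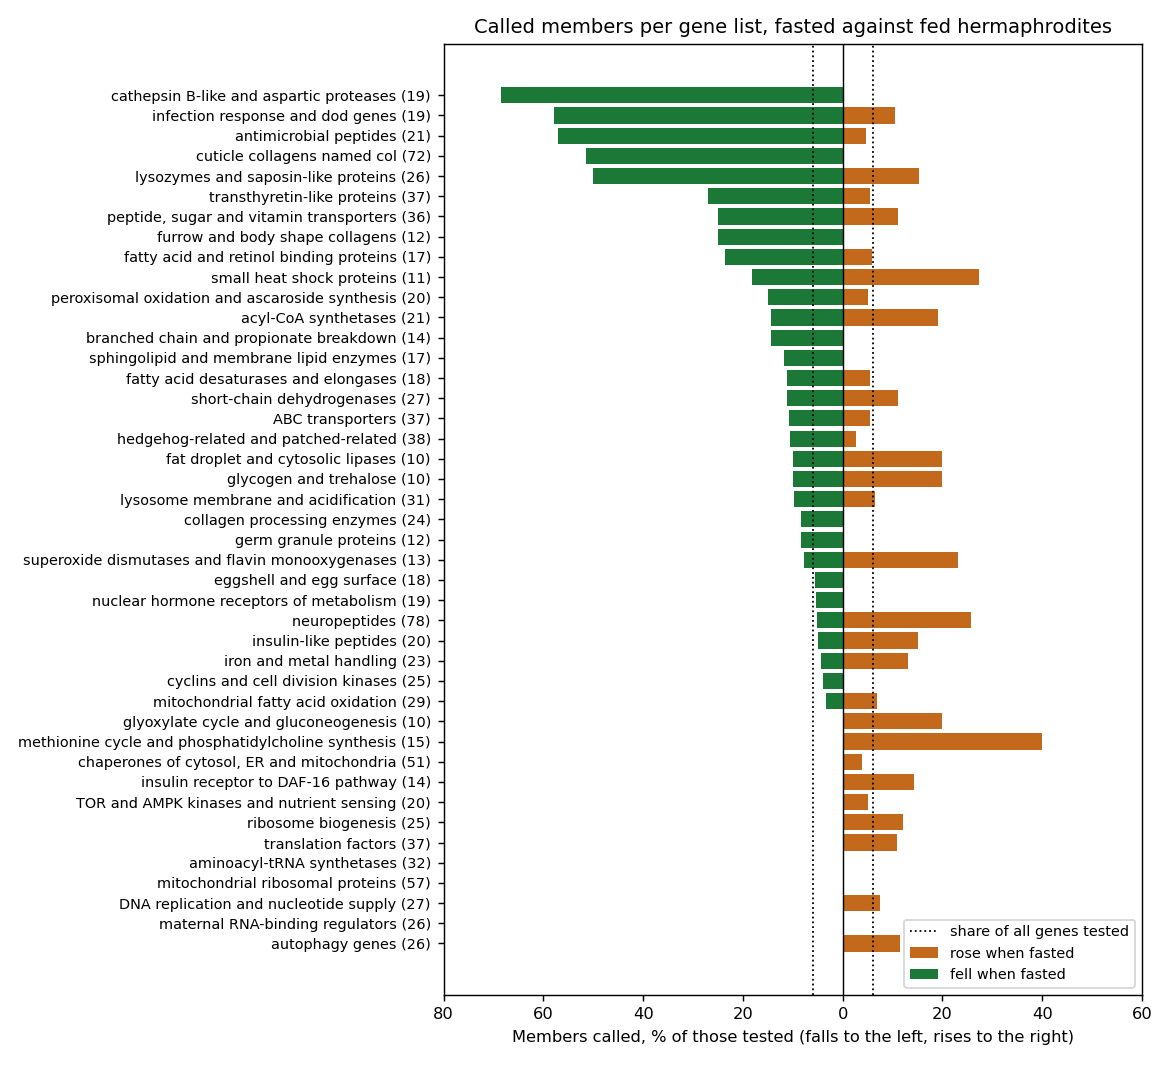
Share of tested members called (% of those tested, horizontal axis) in each gene list with at least 10 tested members, number tested in brackets. Green bars to the left are falls, orange bars to the right are rises, and dotted lines mark the 6.02% and 6.08% of all genes; proteases, infection genes, antimicrobial peptides, collagens and lysozymes reach at least 50% on the side of falls.

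Among defence genes falls outnumbered rises, as the plot of shares per list shows. Lysozymes cut bacterial cell walls and saposin-like proteins pierce membranes. Of 26 tested 13 fell and 4 rose (50% and 15.4%, against 6.02% and 6.08% of all genes), 12 and 3 of them in every alternative. The gene ilys-5, an invertebrate-type lysozyme, read 14.16, 14.11 and 14.46 when fed and 8.97, 8.63 and 8.203 when fasted (-5.64 ± 0.25, or 49.96-fold lower; adjusted p = 1.69e-07), while its relative ilys-3, given above, rose. No fasted array of ilys-5 came within 5 units of a fed one. Its probe set may cross-hybridize with close copies. Saposin-like members were likewise split: spp-4 (-4.37 ± 0.44), spp-18 (-3.04 ± 0.33) and spp-23 (-2.89 ± 0.49) fell, whereas spp-27 rose by 2.55 ± 0.48, from 5.37, 7.65 and 6.999 to 10.08, 8.87 and 8.74.

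Antimicrobial peptides of the caenacin, fip, nlp and abf kinds fell in 12 of 21 tested genes and rose in 1, with a median change of -1.19. Those are 57.1% and 4.76%, against 6.02% and 6.08% of all genes. Caenacin and nlp peptides are secreted mainly from the epidermis. No abf gene was called in the main fit. The rise, fipr-2 (0.80 ± 0.22, named after its value was seen), was lost when any 1 of fed replicates 2 and 3 and fasted replicates 2 and 3 was left out; with the block 2 rose. The caenacin genes cnc-4 and cnc-6 changed by -3.19 ± 0.25 and -3.21 ± 0.48, and cnc-8 by -0.81 ± 0.15. Values of cnc-4 were 11.84, 11.51 and 11.87 when fed and 7.96, 8.66 and 9.03 when fasted, with no overlap.

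Of 19 tested genes in a list of infection response (irg) genes, genes downstream of DAF-16 (dod), 2 C-type lectins and thn-1, 11 fell and 2 rose. Those are 57.9% and 10.5%, against 6.02% and 6.08% of all genes. The gene irg-8 read 10.99, 10.95 and 11.07 when fed and 6.66, 6.94 and 5.996 when fasted (-4.47 ± 0.24; adjusted p = 2.92e-07). The C-type lectin gene clec-67 (-3.96 ± 0.27) and irg-5 (-2.61 ± 0.23) fell too. Against these thn-1, of the thaumatin family of plant defence proteins, read 5.83, 5.95 and 5.80 when fed and 8.16, 8.07 and 9.36 when fasted, a rise of 2.67 ± 0.30 (adjusted p = 8.51e-05) in which fasted replicate 3 stood more than 1 unit above the other fasted arrays. The galectin gene lec-6, a sugar-binding protein outside these lists, fell by 3.36 ± 0.17, from 13.59, 13.71 and 13.93 to 10.36, 10.27 and 10.52.

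Stress genes gave no common direction. Of 11 small heat shock genes 3 rose and 2 fell. The falls included hsp-17, from 10.60, 11.06 and 11.30 to 9.05, 8.96 and 8.96 (-1.996 ± 0.17; adjusted p = 9.08e-06), and the rises hsp-12.3 and hsp-12.6. Of 51 larger chaperones of cytosol, endoplasmic reticulum and mitochondria 2 rose, neither in every alternative, and none fell, while 5 rose with the block. The metallothionein gene mtl-1, a metal binder, rose by 1.84 ± 0.33 (adjusted p = 0.00269), from 10.56, 10.30 and 11.29 to 12.43, 12.50 and 12.74.

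Among superoxide dismutases and flavin monooxygenases 3 of 13 rose and 1 fell (23.1% and 7.69%, against 6.08% and 6.02% of all genes). The extracellular dismutase gene sod-4 rose by 1.13 ± 0.19 (adjusted p = 0.00152), and fmo-3, a flavin monooxygenase, fell by 1.61 ± 0.25. The mitochondrial dismutase gene sod-3 read 7.30, 7.72 and 7.95 when fed and 8.33, 8.37 and 9.06 when fasted (0.93 ± 0.25; adjusted p = 0.0318). Its call ended in 6 alternatives, among them those without fed replicate 1 (adjusted p = 0.121), fed replicate 2 (0.0639) and fasted replicate 3 (0.122). Outside these lists the alcohol dehydrogenase gene adh-1 rose by 3.90 ± 0.21 (14.9-fold), from 9.43, 9.35 and 9.02 to 13.65, 13.18 and 12.66.

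The cuticle was the largest family to fall by number. Of 72 tested collagen genes of the col family 37 fell and none rose (51.4%, against 6.02% of all genes), 31 in every alternative, with a median of -1.52. The array held 128 of them, and the other 56 did not pass the filter on low signals. The gene col-143 read 13.08, 12.86 and 12.79 when fed and 9.47, 9.13 and 8.61 when fasted (-3.84 ± 0.49; adjusted p = 2.07e-04). The gene col-183 gave 11.16, 9.92 and 10.93 against 6.28, 6.36 and 7.83, a similar fall with more spread in both groups (-3.85 ± 0.41). Dimmer on all arrays were col-158 and col-142, with fed levels between 7.25 and 7.70, whose changes of -3.74 and -3.32 became -2.57 and -2.34 with the added signal. Collagen genes resemble each other, and cross-hybridization among them was not tested.

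Collagens of cuticle furrows and body shape (dpy, rol, sqt and the like) fell in 3 of 12 tested genes, and of 24 enzymes that process collagen 2 fell. The processing enzyme gene nas-11, an astacin-type metalloprotease, fell by 2.31 ± 0.14 (adjusted p = 4.21e-07). Of 38 hedgehog-related and patched-related genes 4 fell, or 2 without fed replicate 1, and 1 rose. With the block 6 fell and 2 rose. The groundhog gene grd-14 fell by 1.68 ± 0.20. Transthyretin-like genes, which encode small secreted proteins, fell in 10 of 37 and rose in 2, with 9 falls in every alternative. The largest fall was ttr-35 (-2.50 ± 0.18), followed in the naming rule by ttr-32 (-1.46 ± 0.22), ttr-6 (-1.44 ± 0.13) and ttr-31 (-1.03 ± 0.22).

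Signalling genes held a few sharp changes. Insulin-like peptides bind the receptor DAF-2, some as agonists and some as antagonists. Of 20 tested, 3 rose and 1 fell, all 4 in every alternative that tested them. The agonist gene ins-7 read 10.20, 9.91 and 9.86 when fed and 5.83, 6.18 and 4.84 when fasted (-4.37 ± 0.29, or 20.7-fold lower; adjusted p = 1.14e-06). The rises were smaller: ins-17 went from 7.83, 7.66 and 7.35 to 8.61, 8.88 and 8.95 (1.20 ± 0.21), ins-22 by 1.64 ± 0.31 and ins-23 by 1.51 ± 0.25, from fed levels between 5.51 and 6.04. With the replicate block 5 peptides rose and 1 fell.

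Inside the cell, 2 of 14 genes from the receptor to DAF-16 rose, the kinase gene akt-2 (0.92 ± 0.20) and smk-1, a DAF-16 cofactor (0.61 ± 0.13). The transcript of daf-16 itself had a value of 0.14 ± 0.15 (adjusted p = 0.63), with overlapping arrays. Of 20 TOR, AMP-activated kinase and nutrient sensing genes 1 rose, or 2 with the block. It was aakg-4, a gamma subunit of the AMP-activated kinase, from 6.62, 6.39 and 6.06 to 8.17, 8.10 and 8.62 (1.94 ± 0.20; adjusted p = 4.77e-05). Its catalytic subunit gene aak-2 had 0.46 ± 0.14 (adjusted p = 0.0558, or 0.014 with the replicate block), and its fasted arrays, at 9.84, 9.94 and 10.002, all lay above the fed arrays at 9.45, 9.38 and 9.57.

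The regulators of the fat response gave smaller values. For nhr-49, a nuclear receptor that controls acs-2, the change was 0.22 ± 0.15 (adjusted p = 0.417), and for hlh-30, a regulator of lysosome and autophagy genes, 0.74 ± 0.38 (adjusted p = 0.25). Arrays overlapped for both. Of 19 nuclear hormone receptors of metabolism 1 fell and none rose (1 rose with the block), and that fall was lost when any fed replicate or fasted replicate 2 was left out. Of 26 autophagy genes 3 rose (11.5%, against 6.08% of all genes). Leaving out fed replicate 1, fed replicate 2 or fasted replicate 3 left 1. The one kept in every alternative was epg-6, which binds a membrane phospholipid at autophagosomes (0.58 ± 0.11; adjusted p = 0.00418).

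Neuropeptides were the signalling family with the most rises: 20 of 78 tested rose and 4 fell (25.6% and 5.13%, against 6.08% and 6.02% of all genes). The median change of all 78, called or not, was 0.33, and single changes ran from -2.19 to 2.92. In every alternative 8 rises and 3 falls were kept. The rises numbered 11 without fasted replicate 3, 12 without fed replicate 2 and 13 without fasted replicate 2. With the block 23 rose and 7 fell. The gene nlp-11 read 8.77, 8.71 and 8.76 when fed and 9.41, 9.45 and 9.40 when fasted, an even step of 0.68 ± 0.11 (adjusted p = 0.00167). Others were nlp-3 (0.997 ± 0.18), nlp-80 (1.12 ± 0.22) and nlp-17 (0.73 ± 0.16). The falls included nlp-29 and nlp-31, which are counted among the antimicrobial peptides too. Summed levels of 12 neuron markers, taken over their signals, were 12.89 to 13.05 on fed arrays and 13.10 to 13.13 on fasted ones. Of the 12 markers 2 rose, neither in every alternative, and the part of this shift in the neuropeptide count was not tested.

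**Figure D3:**
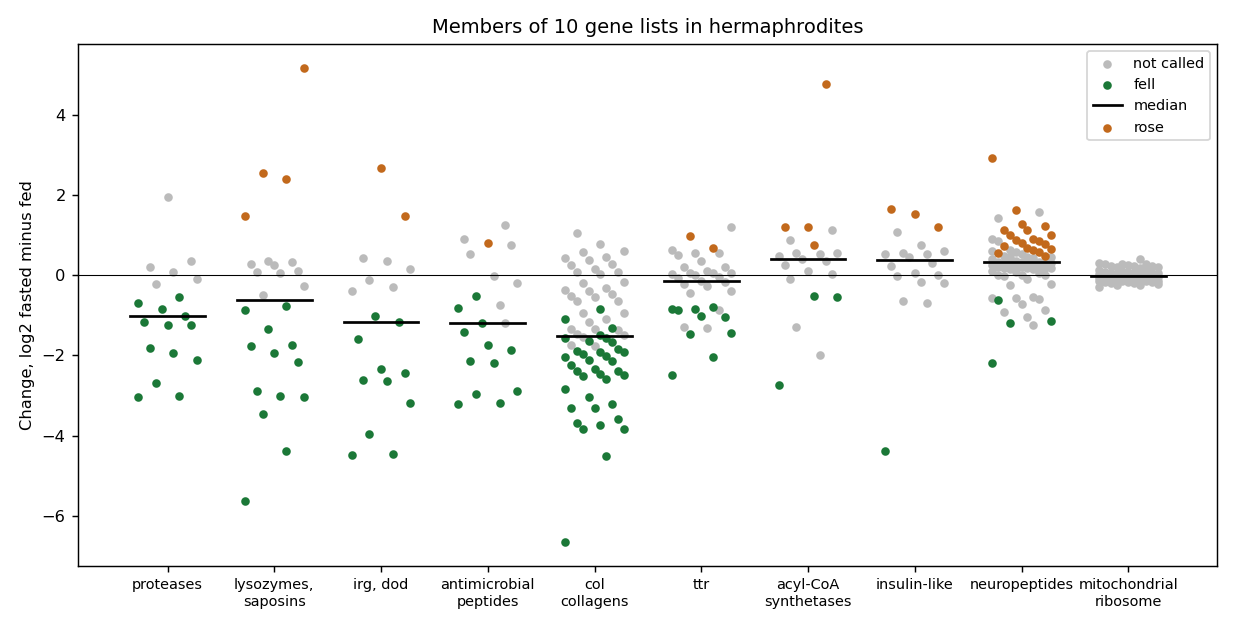
Change (log2, fasted minus fed, vertical axis) of every tested member of 10 gene lists in hermaphrodites. Each point is 1 gene, orange where it rose, green where it fell and grey where it was not called, and bars are medians; col collagens sit at a median of -1.52 and neuropeptides at 0.33.

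Genes of growth and of the germ line had few calls, and for some lists the count depended on the fit. Of 57 mitochondrial ribosomal protein genes and 32 aminoacyl-tRNA synthetase genes none rose or fell, and the replicate block called 2 in each list as risen. Of 37 translation factors 4 rose, and 7 rose with the block; leaving out any 1 of fed replicate 1 and fasted replicates 2 and 3 left 1, and leaving out fasted replicate 1 left 2. Among 25 ribosome biogenesis genes 3 rose, or 5 with the block, which also called 1 fall. Of 26 maternal RNA-binding regulators none was called, and of 18 eggshell genes 1 fell, or none without fed replicate 1.

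Of 6 genes of yolk proteins and the yolk receptor 1 fell, vit-1 (-2.29 ± 0.58, named after its value was seen), a call lost without any 1 array but fed replicate 3. All 6 were lower on every fasted array than on any fed one, as were 12.2% of all genes. In a fit of only the 6 hermaphrodite arrays 3 fell (5.46% of all genes fell there), and with the block on those arrays 5 fell (7.52% of all genes). The yolk gene vit-2 had a change of -0.32 ± 0.28 (adjusted p = 0.537), and all 3 of its fasted arrays lay below its lowest fed array. This SE, like the others of the main fit, uses a spread pooled over all 12 arrays, males included. For vit-2 the SD was 0.16 in fed and 0.18 in fasted hermaphrodites, against 0.71 in fed and 0.30 in fasted males.

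The linker histone gene hil-1, whose product packs chromatin, rose by 2.81 ± 0.15 (7.003-fold; adjusted p = 2.92e-07), from 7.95, 8.01 and 8.12 to 10.71, 10.76 and 11.03. It was the only one called among 9 linker histone genes; with the block 2 rose.

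Whole worms were measured, so fewer cells of a type and less RNA per cell cannot be told apart. Tissue markers are therefore given beside the gene groups. Of 10 intestine markers 4 fell and 1 rose (median -0.31; 2 falls without fed replicate 3 or fasted replicate 3, and the rise lost without any array but fasted replicate 1), and their summed level was 13.73 to 14.23 on fed arrays and 13.13 to 13.23 on fasted ones. The actin gene act-5 of intestinal microvilli fell from 11.50, 11.25 and 11.33 to 9.58, 9.26 and 9.20 (-2.01 ± 0.15), while the intestinal regulator elt-2 had -0.29 ± 0.19 (adjusted p = 0.374). Proteases and lysozymes fell alongside these markers, by a median of -1.03 and -0.63, and the part of the intestine's own share of RNA was not tested.

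Of 7 epidermis (hypodermis) markers 1 fell, the collagen gene dpy-13, which is itself a cuticle gene, and their median was 0.01. Their summed level, in which dpy-13 was the brightest when fed, was 12.58 to 13.52 on fed arrays and 11.83 to 11.98 on fasted ones. The epidermal regulator genes lin-26 and elt-3 had mean levels of 11.04 and 9.15 when fed and 11.05 and 8.99 when fasted. Body wall muscle markers fell in 3 of 11, or 5 with the block (median -0.28; summed level 14.27 to 14.44 fed and 13.88 to 14.08 fasted). Oocyte and germ line markers had a summed level of 15.50 to 15.61 when fed and 15.36 to 15.44 when fasted, with 1 rise in 10 and no fall.

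Males were fasted in the same way, and whether a change differed between the sexes was tested as the difference of the fasting changes. That difference passed for 702 of 12212 genes (5.75%), and for 210 of the 1477 genes called in hermaphrodites. Over probe sets the count was 840 (5.28%), with a range of 428 to 899 when any 1 of the 12 arrays was left out, lowest without hermaphrodite fasted replicate 2. Of the genes called in hermaphrodites 884 were called in males in the same direction and 26 in the opposite one. Among all 12212 genes 3465 were called in males, and among probe sets 27.3%. The differences of single genes given next as passing were kept in each of 21 alternatives. Apart from fixed genes, these genes were named by the size of their change in hermaphrodites, a choice that favours a difference.

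Of the 19 proteases 7 differed, against 5.75% of all genes. Differences were not particular to this list. They also passed for 6 of 18 eggshell genes, 4 of 12 germ granule genes, 6 of 26 maternal RNA-binding regulators and 8 of 57 mitochondrial ribosomal protein genes. The change of cpr-4 was -3.04 in hermaphrodites and 0.44 in males (difference -3.48 ± 0.44; adjusted p = 0.00194), and that of asp-1 was -2.12 and -0.07 (difference -2.05 ± 0.22; adjusted p = 8.48e-04). For cpr-9 the fall was 1.86 units larger in hermaphrodites (-3.01 and -1.15; difference -1.86 ± 0.15, adjusted p = 1.19e-04). The lipase gene lips-11 and the insulin-like gene ins-7 likewise fell further in hermaphrodites, by differences of -2.99 ± 0.44 and -2.28 ± 0.41. The fall of acs-1 was larger too, by -1.05 ± 0.20.

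Among rises, hsp-12.3 (5.31 in hermaphrodites, 2.60 in males) and adh-1 (3.90 and 1.77) gained more in hermaphrodites, with differences of 2.72 ± 0.34 and 2.13 ± 0.30. For thn-1 the change was 2.67 in hermaphrodites and 0.19 in males, and for slc-36.5 it was 2.10 and 0.42. The opposite held for irg-5, which fell by 2.61 in hermaphrodites and by 5.98 in males (difference 3.37 ± 0.33; adjusted p = 6.44e-04), and for grd-14 (-1.68 and -3.43). For acs-2 the values were 4.77 and 2.28 and for lipl-4 2.72 and 0.78, and these differences did not pass (adjusted p = 0.0784 and 0.0559).

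**Figure D4:**
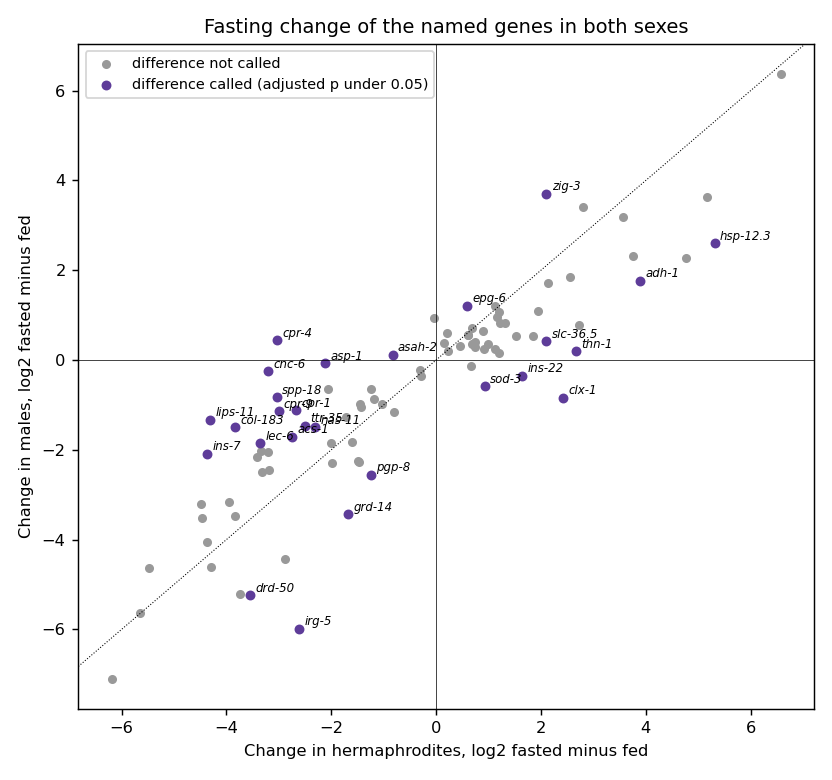
Fasting change in males (log2, vertical axis) against that in hermaphrodites (log2, horizontal axis) for the 92 named genes, 1 point per gene, with the dotted line marking equal change. Purple labelled points are the 27 genes whose difference passed the test, such as cpr-4 and asp-1 near 0 in males and below -2 in hermaphrodites.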

How the data were processed

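The authors made the deposited log2 signals with MAS5, per the submitters' processing notes, where no version is named. No further normalization was applied, and the trimmed mean signal was 500.1 to 500.2 on the 6 hermaphrodite arrays. The table held 22625 probe sets, 77 of them controls, which were dropped. Testing needed a value over log2 6.01, the 40th percentile, on 3 or more of the 12 arrays, and 15913 probe sets met this. Male arrays count here, so some genes near the floor in hermaphrodites were tested and enter the list counts, medians and shares. An example, chosen after its values were seen, is fip-3 of the antimicrobial list. Its mean was 3.08 in fed hermaphrodites and 13.21 in fed males. Detection calls and scan dates were not used here, and the number of arrays limits precision.

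A model of 4 group means over the 12 arrays was fitted in R 4.3.3 by limma 3.58.1 (lmFit, then trended eBayes, 12.2 degrees of freedom), two-sided, with Benjamini-Hochberg adjustment over all probe sets and calls at adjusted p under 0.05. Python 3.11.15 drew the figures. The procedure was tested on simulated data. The labels call the samples biological replicates.

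Genes came from the array's annotation: 20701 probe sets had 1 gene found in the gene table of assembly WBcel235, 65 had 1 gene absent from it, 887 had several and 895 none. A gene was read on its tested probe set with the highest mean, giving 12212 genes. Named were the 15 largest changes per direction and up to 4 members per list, kept in all 17 alternatives, from probe sets with a locus name and no cross-hybridization suffix, plus 20 fixed genes. For the 15 largest the arrays also had to be free of overlap, and the higher mean above the 60th percentile (log2 7.73). Genes outside the rule are said to be chosen after their values were seen. The members and the 48 lists were chosen with earlier results of these data known. Summed marker levels are log2 of summed signals.

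Per the series' design text, 3 independent experiments each held 1 sample per group; that a replicate number marks an experiment is not stated. Deviations from the group means correlated at r = 0.189, 0.129 and 0.259 for same-numbered fed and fasted arrays and at -0.175 to -0.0015 for others. Deviations cancel within a group, so the negative values are not separate support for pairs. The main fit did not pair arrays. The replicate block, an alternative, took the numbers as pairs. With it 1122 of 12212 genes rose and 885 fell, against 742 and 735 in the main fit. The replicate block is given where it changes the call of a named gene or moves a printed list count by over 1.5 times.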

Additional observations from a re-analysis of the deposited data

Results flagged for a closer look

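Fasting changes differed between hermaphrodites and males, by the test of the difference itself, in 12 of the genes named for the size of their change or as fixed genes. That size was the change in hermaphrodites, and such a choice favours a difference from males. Among all 92 named genes 27 passed, against 5.75% of all genes. Values are the hermaphrodite change minus the male change on the log2 scale. Larger rises or smaller falls in hermaphrodites were seen for clx-1, a collagen-related gene (3.25 ± 0.68; adjusted p = 0.0198), hsp-12.3 (2.72 ± 0.34; adjusted p = 0.00183), thn-1 (2.47 ± 0.43; adjusted p = 0.00888), adh-1 (2.13 ± 0.30; adjusted p = 0.00347), drd-50 (1.69 ± 0.41; adjusted p = 0.0376), slc-36.5 (1.68 ± 0.31; adjusted p = 0.0113) and sod-3 (1.51 ± 0.36; adjusted p = 0.032). Larger falls or smaller rises were seen for lips-11 (-2.99 ± 0.44; adjusted p = 0.00445), col-183 (-2.35 ± 0.58; adjusted p = 0.0375), ins-7 (-2.28 ± 0.41; adjusted p = 0.0101), zig-3, a secreted immunoglobulin-domain protein (-1.61 ± 0.41; adjusted p = 0.0423), and lec-6 (-1.50 ± 0.24; adjusted p = 0.00606). The fall of drd-50 was the smaller one in hermaphrodites (-3.55 against -5.24), and the rise of zig-3 likewise (2.10 against 3.71). The genes clx-1 and sod-3 had male changes of -0.84 and -0.58. Of these 12 differences 4 were not kept in every one of 21 alternatives, namely those of col-183 (10 kept), drd-50 (9), zig-3 (9) and sod-3 (12). Their highest adjusted p were 0.154 with quantile normalization for col-183, 0.0875 without hermaphrodite fasted replicate 2 for drd-50, 0.0982 without the same array for zig-3 and 0.0758 without male fasted replicate 2 for sod-3.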

How the results depend on the processing

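The count of rises over probe sets, 910, was 1399 with the replicate block and 1499 with the block on only the 6 hermaphrodite arrays. It ranged from 532 to 907 when a hermaphrodite array was left out (532 without fasted replicate 3, 537 without fasted replicate 2), and falls ranged from 762 to 831. Rises and falls were 733 and 969 after median centring and 678 and 766 after scaling on the hybridization controls. The difference from males passed for 840 probe sets, for 1641 with the replicate block, 354 with scaling on hybridization controls and 1522 with array weights, and for 428 to 899 with 1 of 12 arrays left out (437 without hermaphrodite fed replicate 1, 439 without 2, 455 without fasted replicate 3; 448 without male fed replicate 1, 497 without 2, 468 without male fasted replicate 2). The block ended no call of a named gene. It added those of pck-1 and aak-2 and, on only the 6 hermaphrodite arrays, vit-2. Genes named by size or from a list were named only where every alternative kept their call. Neither the block nor another alternative could end it, and only fixed genes could move. Over all genes 775 of 1477 calls were kept in every alternative. Over named genes 1538 values kept their direction and side of the threshold. Of the others 12 lost the call (icl-1 and sod-3), 9 gained it and 4 turned sign. Those 4 were pept-1 without fed replicate 1 (0.22), fed replicate 2 (0.05), fasted replicate 1 (0.07) and fasted replicate 3 (0.11), against -0.04, and its range ran from -0.37 to 0.22. The cause of these shifts was not tested. The replicate block assumes that arrays of 1 number share an experiment. Signals near the bottom of the scale limit the size of folds, as for hsp-12.6. Promoter motifs were not run, since no promoter sequences were used here.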

Other observations

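Many of the changed genes carry only a sequence name: 580 of the 1477 called genes, against 897 with a locus name. The largest falls among them were F01D5.5 (-5.68 ± 0.63), C12D12.1 (-5.02 ± 0.32) and D1086.3 (-4.94 ± 0.35), and the largest rises F40G12.5 (4.31 ± 0.20), C06G3.3 (3.47 ± 0.63) and Y6E2A.4 (3.18 ± 0.27). For D1086.3 the level went from 12.48 ± 0.16 to 7.53 ± 0.07 (SD, n = 3), and for F40G12.5 from 4.47 ± 0.14 to 8.77 ± 0.39. All 6 calls were kept in every alternative, and no role is given for these genes in the tables used here.

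Genes that fell often lay side by side. Of 729 fallen genes placed in the gene table, 148 (20.3%) had a fallen gene directly beside them in the order of protein-coding genes, compared with 902 of 11900 tested genes (7.58%). For risen genes it was 95 of 723 (13.1%), compared with 957 of 11900 (8.04%). A run of 4 adjacent genes, F01D5.1, F01D5.2, F01D5.3 and F01D5.5, fell by 3.04 to 5.68, and the caenacin genes cnc-4, cnc-3 and cnc-2 made a run of 3. Adjacent copies of a gene can share sequence, and cross-hybridization between them was not tested. These runs were chosen after their values were seen.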
